A study of Meriones unguiculatus and Mus musculus with 2 samples.

Results

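A group of 10 genes of the Notch pathway were described in 2 wounded skins, a Mongolian gerbil (Meriones unguiculatus) skin and an ICR mouse skin; ICR is an outbred stock of Mus musculus. They were chosen by symbol: the receptors Notch1, Notch2, Notch3 and Notch4, the ligands Jag1, Jag2, Dll1 and Dll4, and the target genes Hes1 and Hey1. All 10 were among the 41214 mouse gene rows of the deposited table. Skin was taken 3 days after wounding, the tissue is labelled dermis in both groups, and no age, sex or genotype is given. Each species had 1 library, so no difference below has a replicate check, a test or a p-value, and each describes these 2 libraries only.

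Values are FPKM, fragments scaled to transcript length and library total, so levels can be compared between genes within a library. An ICR value belongs to a mouse gene. A gerbil value was read as that of an assembled gerbil sequence matched to the mouse gene, with an expectation value (E-value) that is 0 for the strongest matches, and a gerbil sequence can be listed for several mouse genes. Differences are gerbil minus ICR on the log2(FPKM + 1) scale, which understates the difference of low genes, and folds are on that scale. Depth is unknown because no counts were used. The labelled dermis held epidermal RNA in both libraries: Krt1, a keratin of the suprabasal epidermis, was at 2471 FPKM in ICR and at 2469 in gerbil. In bulk skin, fewer cells of a type and less RNA per cell cannot be told apart.

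Notch receptors are single-pass membrane proteins that bind ligands of the Jagged and Delta-like families on a neighbouring cell. Binding exposes the receptor to ADAM proteases and then to gamma-secretase, which releases an intracellular fragment that joins Rbpj and a Mastermind protein in the nucleus and switches on Hes and Hey repressor genes. In skin the pathway is known for the commitment of keratinocytes to differentiation and for hair follicle maintenance, and in blood vessels for sprouting and for the investment of vessels by mural cells.

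All 10 members had a gerbil value, and 9 of the 10 were matched with an E-value of 0; Notch1 was matched at 8e-116. Notch1 and Notch3 were listed with the same gerbil value, 29.46 FPKM. Of the 45 pairs of members, 25 have mouse coding sequences that align with blastn, and this was the pair among them with a shared gerbil value. The coding sequences of mouse Notch3 and Notch1 align in 11 blocks that cover 51.7% of the 6954 coding bases of Notch3, the best of them 69.1% identical over 1436 bases. A stretch of 60 bases from exon 6 of each gene shows how close the receptors are where they are most alike. It was taken as the 60 aligned bases, within 1 exon of each gene, with the most matches. Capitals mark the 51 bases (85.0%) that the 2 genes share, and each sequence is the coding strand of the mouse gene, read 5′ to 3′ from GENCODE M21 transcripts on GRCm38.
Notch3, chr17:32158065-32158124, minus strand: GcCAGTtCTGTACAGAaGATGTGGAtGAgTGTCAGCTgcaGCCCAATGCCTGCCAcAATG
Notch1, chr2:26481148-26481207, minus strand: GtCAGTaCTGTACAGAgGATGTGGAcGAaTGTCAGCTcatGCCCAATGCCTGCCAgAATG

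**Figure D1:**
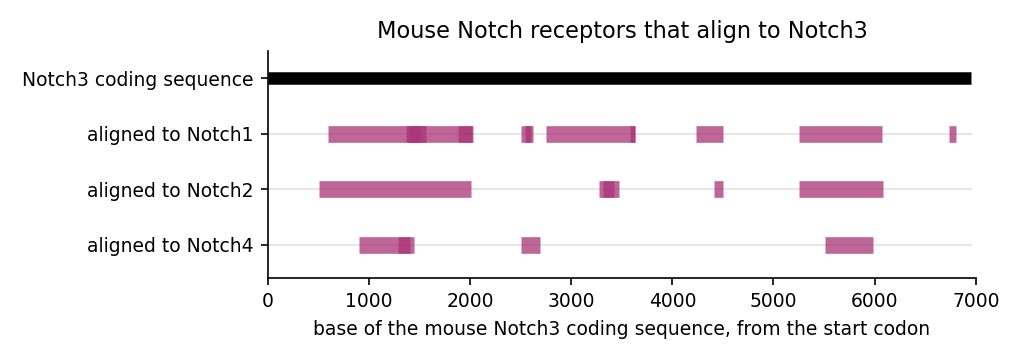
Blocks of the mouse Notch3 coding sequence (x axis, bases from the start codon) that align with blastn to the coding sequences of Notch1, Notch2 and Notch4, in rows; darker parts are overlapping blocks. Notch1 covers 51.7% of Notch3, Notch2 37.8% and Notch4 17.3%.

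Gm17276 and Gm9978 were the other rows listed at 29.46 FPKM. Gm17276 lies antisense to Notch3 on chromosome 17 (32113429 to 32141839, GRCm38), was matched at 1e-124 and was at 0.0974 FPKM in ICR. Gm9978, on chromosome 10 (78484570 to 78487842), was matched at 3e-66, was listed at 0 in ICR, and its transcript is 87.5% identical to Notch3, in reverse orientation, over 367 bases. Thus every row with this gerbil value aligns to mouse Notch3, and Notch3 was the row of the 4 matched with an E-value of 0. The gerbil genome annotation used here (Bangor_MerUng_6.1, RefSeq) lists each of the 10 members under its own symbol, Notch1 and Notch3 included. No gerbil value of Notch1 separate from that of Notch3 can be read from the table.

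The other members that shared a gerbil value did so mostly with mouse genes of no detectable similarity; why they coincide was not tested. Of all gerbil values deposited, 91.7% were listed for more than 1 row. Jag1 was the member whose gerbil value stood for no other row. Hes1 shared its value with Ptges, a prostaglandin synthase, and Notch2 with Srp72, a signal recognition particle protein, and neither aligns to the member. None of the 5 rows that shared the value of Jag2, the 18 of Notch4 or the 22 of Dll4 aligned to it. For Dll1, 1 of 6 did: A930024N18Rik, a noncoding gene on the opposite strand that overlaps the locus.

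Hey1 was the other member with a related protein-coding gene at the same value. Of the 35 other rows at 1.37 FPKM, Heyl, a Hey family repressor, aligned to it, at 73.0% identity over 345 bases. Heyl was matched at 7e-29 and Hey1 at 0. The most alike 60 coding bases within 1 exon share 50 bases (83.3%), in capitals, and are shown from exon 4 of each gene.
Hey1, chr3:8665967-8666026, minus strand: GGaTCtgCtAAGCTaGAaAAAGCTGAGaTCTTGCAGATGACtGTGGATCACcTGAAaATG
Heyl, chr4:123243024-123243083, plus strand: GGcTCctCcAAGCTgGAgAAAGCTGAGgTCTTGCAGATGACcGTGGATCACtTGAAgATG

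No member differed by 4-fold or more between the libraries, 0 of 10 in either direction. Among all 20089 measured gene symbols (both values listed, at least 1 FPKM in at least 1 library), 25.9% passed 4-fold on the gerbil side and 5.56% on the ICR side. Of that set, 6021 symbols were not annotated as protein-coding in GENCODE M21. Among the 11154 protein-coding symbols matched with an E-value of 0 the shares were 6.10% and 5.99%, so 0 of 10 is near that background. At 2-fold, 4 members were higher in gerbil (Notch1, Notch2, Notch3 and Dll1) and 0 lower, beside 47.2% and 12.9% of all measured symbols and 21.6% and 16.4% of the protein-coding set. That count takes the value that Notch1 and Notch3 share for each of them, and it was 2, Notch1 and Notch3, after trimmed mean scaling and after ribosomal and housekeeping scaling, beside 42.6% and 36.8% of all measured symbols. In direction, 9 of 10 members were higher in gerbil and Jag2 was lower, beside 70.4% higher over all measured symbols and 57.3% in the protein-coding set. Ribosomal and housekeeping scaling lowers gerbil values 1.56-fold; it put Jag1, Hes1 and Notch4 on the ICR side, and a trimmed mean scaling (1.18-fold) put Notch4 there. The median log2 difference was 0.84 over the 10 members, 0.87 over all measured symbols and 0.21 in the protein-coding set. With 1 FPKM required in both libraries, the median was 1.12 over the 7 members left and 0.07 over all 11564 symbols left. Those 7 include Notch1 and Notch3 with their shared value, and leave out Notch4, Dll4 and Hey1. On that base 0 of 7 passed 4-fold, beside 6.93% of symbols on the gerbil side and 7.36% on the ICR side.

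**Figure D2:**
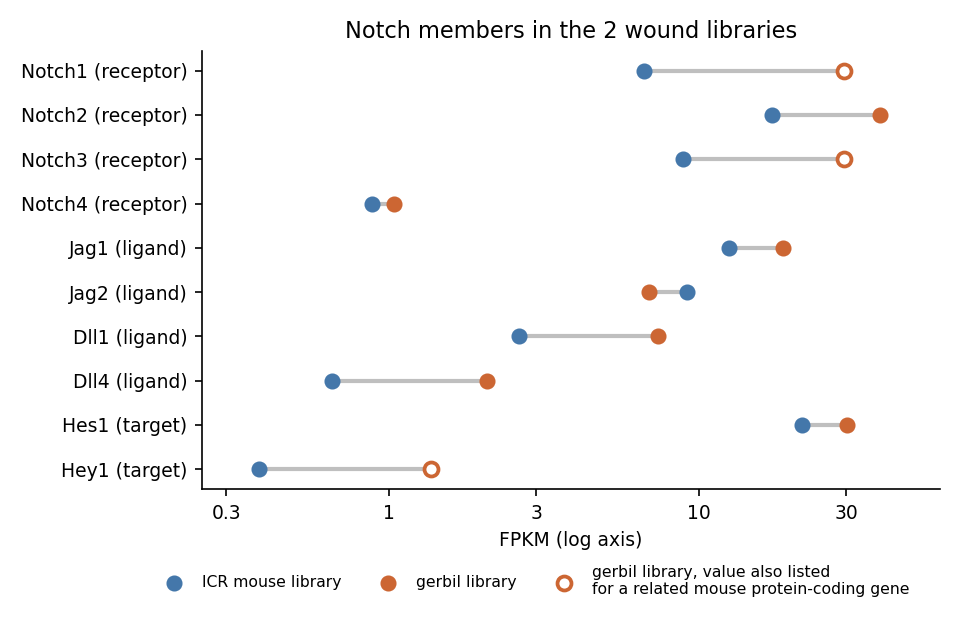
FPKM (x axis, log) of each Notch member (rows) in the ICR library (blue) and the gerbil library (orange), 1 library each, with no error bars because there are no replicates. Open circles mark gerbil values also listed for a related mouse protein-coding gene: Notch1 and Notch3, both at 29.46 FPKM, and Hey1 at 1.37. As deposited, 9 of 10 members lie higher in gerbil; ribosomal and housekeeping scaling would put Jag1, Hes1 and Notch4 on the ICR side, and trimmed mean scaling Notch4.

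Among the receptors, Notch2 was the most abundant in both libraries. Notch2 (ENSMUSG00000027878, chromosome 3, 98013538 to 98150367), a broadly expressed receptor, was at 17.2 FPKM in ICR and at 38.4 in gerbil, a log2 difference of 1.12. Notch3 (ENSMUSG00000038146, chromosome 17, 32120820 to 32166880), the receptor of pericytes and vascular smooth muscle, was at 8.90 and 29.46 FPKM, a difference of 1.62. Both lay above the middle 50% of protein-coding genes of like level, whose log2 differences ran from -0.63 to 0.69 (1907 genes matched with an E-value of 0). Of those genes, 92.9% had a smaller difference than Notch3 and 85.8% a smaller one than Notch2.

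Notch1 (ENSMUSG00000026923, chromosome 2, 26457903 to 26516663), the receptor best known for keratinocyte differentiation, was at 6.65 FPKM in ICR and was listed with the gerbil value of Notch3. Its listed difference of 1.99, or 3.98-fold, fell just short of 4-fold and is a comparison of ICR Notch1 with a value it shares. Set against the ICR sum of Notch1 and Notch3, 15.5 FPKM, the gerbil value of 29.46 counted once was 1.84-fold higher, a log2 difference of 0.88. The 3.08-fold difference of Notch3 alone and this joint one were in the same direction and differ by more than 1.5 times. Notch4 (ENSMUSG00000015468, chromosome 17, 34564268 to 34588503), a receptor of endothelial cells, was low in both, at 0.883 FPKM in ICR and at 1.04 in gerbil. Its difference of 0.12 was the smallest of the 10, positive as deposited and negative under both scalings.

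Notch2 and Notch3 were the main receptors where shares could be computed. In ICR, Notch2 made up 51.1% of the summed FPKM of the 4 receptors, Notch3 26.5%, Notch1 19.8% and Notch4 2.63%. In gerbil a sum over all 4 would count 29.46 FPKM repeatedly, so shares were computed over the 3 receptors matched with an E-value of 0. On that base Notch2 was 63.7% in ICR and 55.7% in gerbil, Notch3 33.0% and 42.8%, and Notch4 3.27% and 1.51%. The gerbil value of Notch3 is also listed for Notch1, while ICR Notch1 is left out of this base. Against the 51.1% of Notch2 over all 4 ICR receptors, its 55.7% in gerbil is higher. The direction of these shifts therefore depends on the base. The ratio of Notch2 to Notch3 was 1.93 in ICR. In gerbil, the ratio of Notch2 to the value that Notch1 and Notch3 share was 1.30. These ratios therefore do not compare like quantities.

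**Figure D3:**
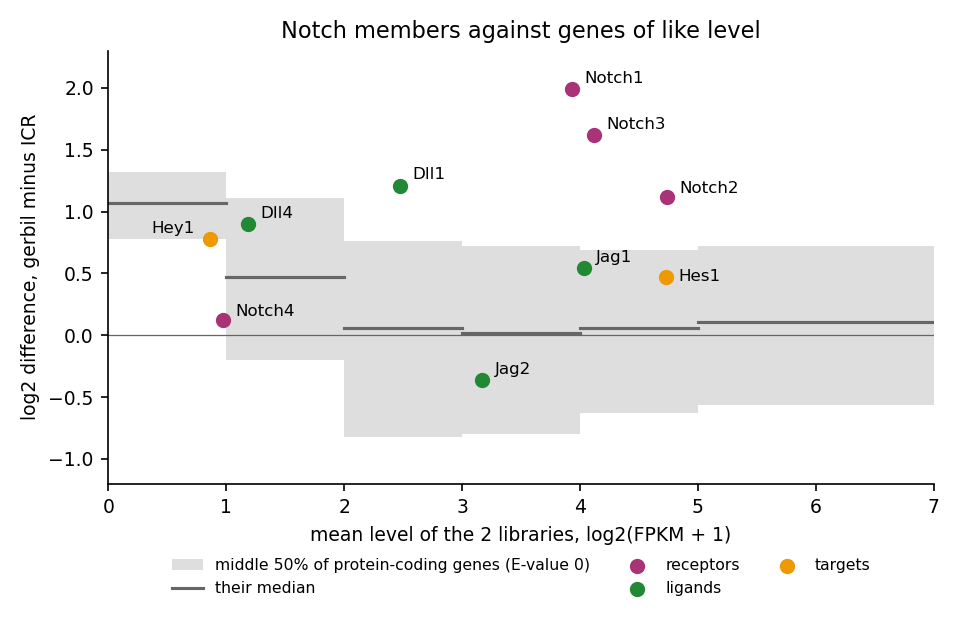
Log2 difference (y axis, gerbil minus ICR) of each member against its mean level in the 2 libraries (x axis, log2 of FPKM + 1), with the middle 50% (grey) and median (line) of protein-coding genes matched with an E-value of 0 in bins of level. Notch1, Notch2, Notch3 and Dll1 lie above the grey band, Notch1 with the gerbil value of Notch3. The band itself lies above 0 at the lowest level, from 0.78 to 1.32, where requiring 1 FPKM in 1 library partly leaves out small differences.

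Among the ligands, Jag1 led in both libraries and the order below it differed. Jag1 (ENSMUSG00000027276, chromosome 2, 137081456 to 137116644), a Jagged ligand of epidermis, hair follicle and vessels, was at 12.5 FPKM in ICR and at 18.7 in gerbil, a log2 difference of 0.54 from a gerbil value of its own. Jag2 (ENSMUSG00000002799, chromosome 12, 112908590 to 112929495), a Jagged ligand of the basal epidermis, was at 9.18 and 6.91 FPKM, a difference of -0.36. Jag2 was the member that was lower in gerbil as deposited, and it stayed lower under the 5 other settings tried, at -0.25 to -0.91. Both Jagged ligands lay within the middle 50% of protein-coding genes of like level.

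The Delta-like ligands were lower than Jag1 in both libraries. Dll1 (ENSMUSG00000014773, chromosome 17, 15367354 to 15376872), the Delta-like ligand linked to stem cells in human epidermis, was at 2.64 FPKM in ICR and at 7.40 in gerbil, a difference of 1.21. It lay above the middle 50% of genes of like level (-0.82 to 0.76, 2340 genes). Dll4 (ENSMUSG00000027314, chromosome 2, 119325784 to 119335962), the ligand of endothelial tip cells and arteries, was at 0.655 and 2.08 FPKM, a difference of 0.90 that lay within that range for its level (-0.20 to 1.11, 1843 genes).

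As a share of the summed FPKM of the 4 ligands (25.01 in ICR and 35.1 in gerbil), Jag1 was 50.1% in ICR and 53.3% in gerbil. Jag2 was 36.7% and 19.7%, Dll1 10.6% and 21.1%, and Dll4 2.62% and 5.93%. Within a library these shares do not depend on how the libraries are scaled. The ratio of Jag2 to Dll1 was 3.48 in ICR and 0.93 in gerbil, so Jag2 stood second in ICR and Dll1 in gerbil. With 1 library per species, no spread is known for these shares, and neighbours in the order cannot be said to differ.

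The target genes differed by less than 2-fold on the FPKM + 1 scale. Hes1 (ENSMUSG00000022528, chromosome 16, 30064384 to 30067796), the basic helix-loop-helix repressor induced by Notch in many tissues, was at 21.5 FPKM in ICR and at 30.1 in gerbil. It was the most abundant member in ICR and the second in gerbil, and its difference of 0.47 lay within the middle 50% of genes of like level and became -0.15 under ribosomal and housekeeping scaling. Hey1 (ENSMUSG00000040289, chromosome 3, 8663362 to 8667039), a related repressor of vascular and other Notch-responsive cells, was the lowest member in ICR, at 0.383 FPKM, and was listed at 1.37 in gerbil. Without a pseudocount its ratio was 3.58. Its difference was 0.78 alone and 0.33 against the ICR sum of Hey1 and Heyl, 0.885 FPKM.

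The lowest members sit where the libraries are least alike. Among the 11312 protein-coding symbols with both values and an E-value of 0, 11.6% of ICR values but 3.07% of gerbil values lay above 0 and under 1 FPKM. Among the 11154 of these symbols that were measured, 580 had the lowest mean levels, at most 1 on the log2(FPKM + 1) scale. Of those 580, 95.9% were higher in gerbil, with a median log2 difference of 1.07. Each had at least 1 FPKM in at least 1 library, so small differences were partly left out in advance at this level. Hey1 at 0.78 and Notch4 at 0.12 lay at or below the lower edge of the middle 50% of those genes (0.78 to 1.32), Hey1 just below it before rounding. The higher gerbil values of Hey1 and Dll4 are of a size common at their levels.

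The order of the members was much alike in the libraries. From high to low it ran Hes1, Notch2, Jag1, Jag2, Notch3, Notch1, Dll1, Notch4, Dll4 and Hey1 in ICR. In gerbil it ran Notch2, Hes1, Notch1 with Notch3, Jag1, Dll1, Jag2, Dll4, Hey1 and Notch4. Across the 10 genes, which are not replicates, Pearson's r of log2(FPKM + 1) was 0.91 and Spearman's rho 0.81, and without Notch1 they were 0.93 and 0.85 over 9 genes. No such correlation is given for other genes, so this likeness is not shown to be particular to the members.

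Most endothelial and mural cell markers were also higher in gerbil, as were 70.4% of all measured symbols, and after ribosomal and housekeeping scaling the endothelial direction turned, with 3 of 8 higher beside 57.9% of all symbols, while 6 of 9 mural markers were higher. Their part in the receptor and ligand values was not tested. Of 10 endothelial markers 8 were measured, 7 of them higher in gerbil and 1 lower, with a median of 0.41 and a summed level of 40.05 FPKM in ICR and at 61.5 in gerbil; Flt1 and Emcn had no gerbil match. All 9 mural cell markers were measured, 8 higher and 1 lower, with a median of 0.65 and sums of 109.9 and 289 FPKM. Acta2, whose gerbil value of 169 FPKM is also that of Actb, makes up much of the second sum. Among the mural genes, Pdgfrb was at 8.81 and 9.70 FPKM and Rgs5 at 4.69 and 5.10, while Myh11 was at 0.693 and 3.24. Cspg4, at 0.399 and 19.8 FPKM, was the 1 mural marker past 4-fold, with a gerbil value listed for 3 rows. None of the measured endothelial or mural markers was listed at 0. Of 10 keratinocyte markers, 3 were higher and 7 lower, with a median of -0.25. The 4 that were at least 2-fold lower were Krt10 (-2.04), Trp63 (-4.50), Krtdap (-2.34) and Lor (-1.83). They were the markers matched with an E-value above 0. The 3 higher ones were among the 6 matched at 0. Krt14 had an ICR value of 0 and a gerbil value of 18470 FPKM, shared with other keratins. This value dominates the gerbil sum (15687 FPKM in ICR and 36640 in gerbil). The median was -0.11 over 10 fibroblast markers, 5 higher and 5 lower (sums 3638 and 1827 FPKM). Col3a1, at 1794 and 1.37 FPKM with a weak match (E-value 9e-14), sets that gap: without it the sums were 1844 and 1826 FPKM and the median was 0.20. It was 0.51 over the 5 leukocyte markers of 10 that were measured, 3 higher and 2 lower (sums 1577 and 1799.8 FPKM). Itgam, at 71.5 and 797 FPKM, makes up much of the second sum, on a match of 1e-102 and a value listed for 14 rows. Its own difference in FPKM exceeded that between the sums.

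**Figure D4:**
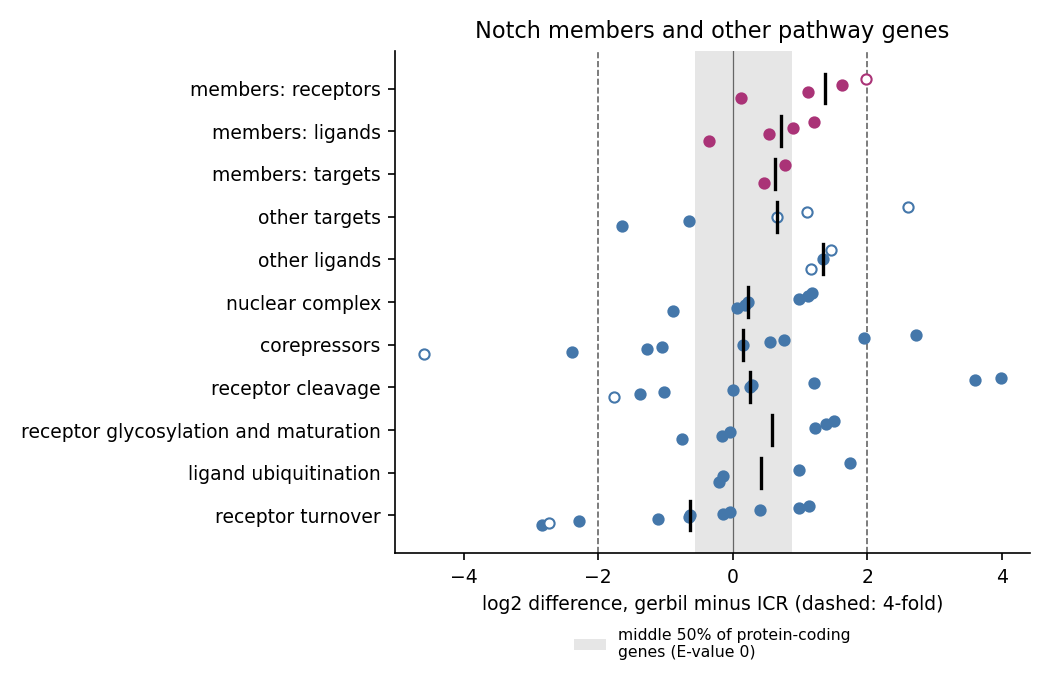
Log2 difference (x axis, gerbil minus ICR) of each measured gene, as a point, for the members by role (purple) and for 8 lists of other Notch pathway genes (blue); black bars are list medians, open points are matches with an E-value above 0, and grey is the middle 50% of protein-coding genes matched with an E-value of 0. No member reaches 4-fold (dashed). Of 54 other pathway genes, 4 lie beyond it on the gerbil side and 5 on the ICR side. In the protein-coding set the shares were 6.10% and 5.99%.

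The rest of the pathway was spread on both sides of 0. Of 58 other pathway genes listed, 54 were measured, 31 higher and 23 lower in gerbil, with a median of 0.21. In the protein-coding set 57.3% were higher and the median was 0.21 too. Of the 54, 4 passed 4-fold on the gerbil side and 5 on the ICR side. The shares were 25.9% and 5.56% of all measured symbols, and 6.10% and 5.99% of the protein-coding set. These genes are thus near the protein-coding background. Under ribosomal and housekeeping scaling that median was -0.33.

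Receptor cleavage genes included the largest gerbil-side differences of these lists. Aph1b and Aph1c, alternative subunits of gamma-secretase, were at 2.91 and 1.98 FPKM in ICR and were listed with the same gerbil value, 46.25 FPKM. Their mouse coding sequences are 96.1% identical, so they cannot be told apart, and against their ICR sum of 4.89 FPKM the gerbil value was 8.02-fold higher. Aph1a, the more abundant alternative in ICR at 21.97 FPKM, was at 26.8 in gerbil. The ratio of Aph1a to Aph1b was 7.55 in ICR. In gerbil, the ratio of Aph1a to the value that Aph1b and Aph1c share was 0.58. The 2 ratios therefore do not compare like quantities.

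The other receptor cleavage genes were within 4-fold, 7 of the 9 genes of the list in all. Of all measured symbols, 25.9% passed 4-fold on the gerbil side and 5.56% on the ICR side. At 2-fold, 3 of the 9 were higher in gerbil and 3 lower, beside 47.2% and 12.9% of all measured symbols. Ncstn, nicastrin, was the most abundant in gerbil, at 27.7 and 65.2 FPKM. Adam10, the protease that makes the first ligand-induced cut, was level at 31.4 and 31.5 FPKM, from a gerbil value of its own.

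The nuclear complex had no gene past 4-fold, 0 of 7. This is near the shares of the protein-coding set, 6.10% on the gerbil side and 5.99% on the ICR side. Snw1, a coactivator, was the most abundant, at 27.8 and 29.2 FPKM. Rbpj, the DNA-binding protein of the complex, was at 7.48 FPKM in ICR and at 3.57 in gerbil, and was the 1 gene of the 7 that was lower in gerbil. Rbpj, Adam10 and Aph1a were named after their values were seen.

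Corepressors were the most spread list, with 1 of 9 past 4-fold on the gerbil side and 2 on the ICR side. The shares past it were 25.9% and 5.56% of all measured symbols, and 6.10% and 5.99% of the protein-coding set. Hdac1, a histone deacetylase, was at 11.1 FPKM in ICR and at 78.7 in gerbil. Tle3, a Groucho-family corepressor, was at 30.9 and 5.07 FPKM. Ctbp1, a dehydrogenase-like corepressor, was at 50.3 FPKM in ICR, the highest of its list, and at 1.13 in gerbil with a weak match of 3e-20. The gerbil value of Hdac1 was listed for 5 rows, that of Tle3 for 5 and that of Ctbp1 for 19.

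Genes of receptor turnover had the lowest median of the 8 lists, -0.63 over 11 genes, with 3 higher and 8 lower. Those at least 4-fold lower were Numb, an endocytic antagonist of Notch (18.2 and 2.94 FPKM), Dtx2, a Deltex ubiquitin ligase (15.8 and 1.35), and Dtx3l. Past 4-fold on the ICR side were 5.56% of all measured symbols and 5.99% of the protein-coding set. The gerbil value of Numb was listed for 20 rows and that of Dtx2 for 22. Dtx3l was at 5.66 FPKM in ICR and was listed at 0 in gerbil on a match of 5e-41, as were 562 other rows. Nedd4, a ubiquitin ligase and the most abundant of the list, was at 75.9 and 100.4 FPKM.

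Genes that modify receptors and ligands lay within 4-fold. Lfng, the Fringe sugar transferase that shifts receptor preference between Delta-like and Jagged ligands, was at 20.9 FPKM in ICR and at 50.02 in gerbil, from a gerbil value of its own. Furin, the protease that matures the receptor, was at 44.3 and 43.0 FPKM. Mib1, the ubiquitin ligase that activates ligands and the most abundant of its 4-gene list, was at 11.9 FPKM in ICR and at 10.7 in gerbil.

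Further targets were low or went in either direction. Of the 5 measured, 3 were higher in gerbil and 2 lower. The 2 lower ones were those matched with an E-value of 0. Nrarp, a feedback inhibitor induced by Notch, was at 29.3 FPKM in ICR and at 18.3 in gerbil, a difference of -0.65 from a gerbil value of its own. The ratio of Hes1 to Nrarp was 0.74 in ICR and 1.64 in gerbil. Hes2 was at 0.0184 FPKM in ICR and at 5.23 in gerbil, a value listed for 6 rows, its match being weak (2e-12). Heyl, with the gerbil value of Hey1, was at 0.502 FPKM in ICR. Hes3, Hes7 and Hey2 had no gerbil match. Of the noncanonical or divergent ligands, Dlk1 was the most abundant measured in both libraries, at 0.264 FPKM in ICR and at 2.19 in gerbil. Dlk2 was higher in ICR, at 2.83 FPKM, and had no gerbil match.

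**Figure D5:**
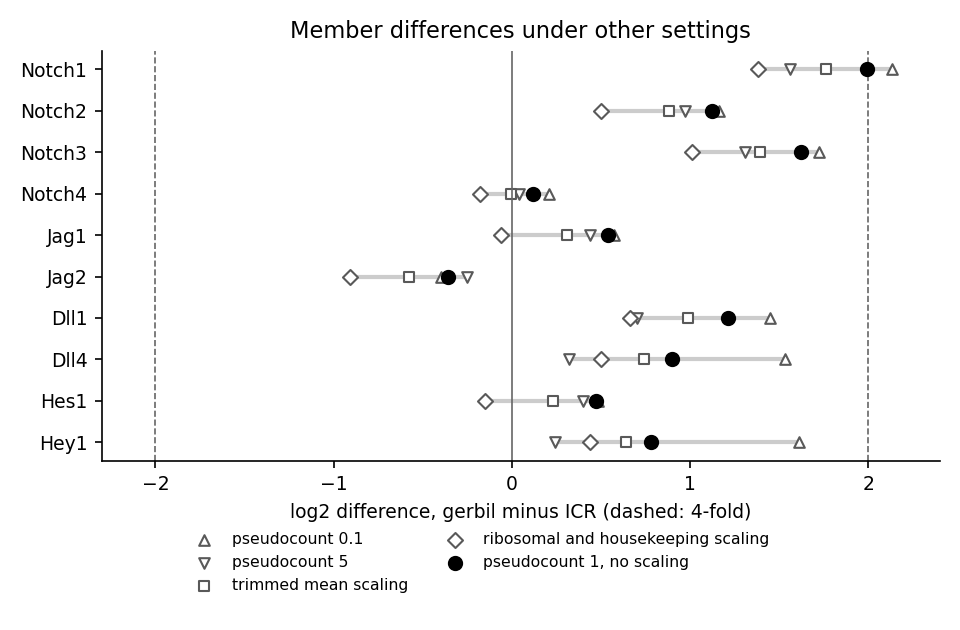
Log2 difference (x axis, gerbil minus ICR) of each member (rows) as reported (black) and under 2 other pseudocounts and 2 scalings (open symbols); dashed lines mark 4-fold. Notch2, Notch3, Dll1, Dll4 and Hey1 lie on the gerbil side and Jag2 on the ICR side under each of these settings, Notch1 passes 4-fold with a pseudocount of 0.1, and Notch4, Jag1 and Hes1 cross 0 under scaling.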

How the data were processed

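RNA sequencing profiled 1 gerbil and 1 ICR library. The authors deposited FPKM for both in 1 table, per the file headers, with the gerbil values placed under expression measured after assembly. How the gerbil sequences were assembled, searched and matched is not given in the sources used here; no listed E-value exceeded 1e-05. Named without roles, per the submitters' processing notes, are the mouse build GRCm38.p2, Cufflinks 2.2.1, RSEM 1.2.19, STAR 2.4.0b and CASAVA. Of 41214 rows, 221 held no value. Depth is unknown, so no interval is given.

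The members and gene lists were chosen with earlier results of these data known. Named were the 10 members, other pathway genes past 4-fold, the most abundant gene of each list in each library and genes of those lists sharing a member's gerbil value. Of the genes this rule takes in, 1 is not reported here. Where a symbol had several rows, the one with the highest mean was used. A 4-fold size rule took the place of a test, and with 2 libraries no likeness of patterns was computed. Coordinates are those of the table (GRCm38). Biotypes and transcripts came from GENCODE M21 (40340 IDs found), searched with blastn 2.17.0 to an E-value of 1e-05. Bins of mean level had edges at 1, 2, 3, 4 and 5 on the log2 scale. The bins, the blastn search, the protein-coding set and joint values of related genes were added after the data were examined. No protein or promoter sequence was used here. The size rule was tested on simulated data. Python 3.11.15, numpy 2.4.6, pandas 2.3.3, scipy 1.17.1 and matplotlib 3.10.9 were used.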

Additional observations from a re-analysis of the deposited data

How the results depend on the processing

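No library could be left out, and depth and animal-to-animal spread are unknown. No paired analysis was possible because gerbil and ICR were measured once each. With a pseudocount of 0.1, 1 member passed 4-fold on the gerbil side, Notch1 at 2.13, beside 41.1% of all measured symbols, and a 2-fold rule gave 4; 0 passed on the gerbil side under the other settings, and 0 on the ICR side under any. Under ribosomal and housekeeping scaling Hes1 was at -0.15, Jag1 at -0.06 and Notch4 at -0.18, and under trimmed mean scaling Notch4 was at -0.0038. The median of the other pathway genes was -0.33 under the former scaling and -0.02 with 1 FPKM required in both libraries, which left 44 genes. The cause was not tested. The median of the members stayed positive, from 0.42 with a pseudocount of 5 to 1.30 with 0.1. Over all measured symbols the median was 0.40 and 1.12 with those pseudocounts. The median of the members was 0.78 without Notch1, an alternative chosen after the data were examined, as were the 2-fold and marker counts after scaling and the fibroblast sums without Col3a1. Summing rows of a symbol left each member's value as it was. Keeping matches of E-value 0 alone removes none of the 4 ligands, so the share of Jag1 among them has no alternative there.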
